A study of Mus musculus with 12 samples.

Results

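Genes used by the acid-secreting parietal cell (Atp4a, Clic6, Kcnq1, Kcnj15 and Slc26a9) were followed in the antral region of the stomach of CEA424-SV40 TAg transgenic mice and their non-transgenic controls. All probes whose ID carries the NCBI gene number of one of these 5 genes were taken, which gave 6 probes of 46116 on the array, and 1 probe per gene was above background often enough to be tested. The transgenic mice (C57Bl/6) carried the SV40 T antigens under a fragment of the human CEA promoter and were killed at day 30, day 60 or day 90 of age. By the labels, each of these samples mixed tumour of the antrum and normal tissue, in unstated proportions. The controls (C57Bl/6, wild type) gave normal antrum, and their age is uncertain. The labels give 2 to 6 months, and the study calls them littermates and, in a figure legend, day 90 mice. Each group held 3 mice with 1 array each, 12 arrays in all.

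Parietal cells secrete hydrochloric acid through an apical proton pump that takes up potassium in exchange for protons. The pump runs only while potassium and chloride leave the cell across the same membrane, and the bicarbonate left behind is passed to the blood in exchange for chloride. Parietal cells are most abundant in the glands of the gastric corpus and are fewer in the antrum, where mucous and endocrine cells prevail. Of the 5 genes, Atp4a encodes the catalytic alpha subunit of the proton pump. Kcnq1 encodes the pore of the potassium channel through which potassium returns to the lumen, and Kcnj15 encodes the inward rectifier Kir4.2, another potassium channel found in parietal cells. Slc26a9 encodes a chloride transporter of gastric epithelium, and Clic6 (parchorin) is a member of the chloride intracellular channel family that is abundant in parietal cells.

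The RefSeq table (GRCm38.p6) held the start region of 3 of the 5 genes. Since the 5 signals varied together across the arrays, the 250 bases before the start are shown for these 3, all on the plus strand. Capitals mark GATA, the core read by GATA factors, the longer AGATAA that contains it, and TATAAA, the TATA box, each searched on both strands.
Atp4a, chr7:30711959-30712208: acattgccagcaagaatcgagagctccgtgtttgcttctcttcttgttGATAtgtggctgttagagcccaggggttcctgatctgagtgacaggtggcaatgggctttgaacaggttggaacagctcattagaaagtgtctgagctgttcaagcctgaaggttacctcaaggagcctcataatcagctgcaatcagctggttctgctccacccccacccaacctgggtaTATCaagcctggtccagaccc
Kcnj15, chr16:95257308-95257557: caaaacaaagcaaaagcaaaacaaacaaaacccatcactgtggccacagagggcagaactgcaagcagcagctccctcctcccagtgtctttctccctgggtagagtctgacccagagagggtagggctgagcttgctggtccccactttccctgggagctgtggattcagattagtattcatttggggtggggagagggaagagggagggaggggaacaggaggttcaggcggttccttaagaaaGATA
Slc26a9, chr1:131743772-131744021: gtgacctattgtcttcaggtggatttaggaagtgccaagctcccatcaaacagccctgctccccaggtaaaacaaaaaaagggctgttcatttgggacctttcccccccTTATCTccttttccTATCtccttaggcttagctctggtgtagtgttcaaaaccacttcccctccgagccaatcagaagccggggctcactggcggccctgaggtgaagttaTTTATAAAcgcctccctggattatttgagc
The core GATA was present 2 times before Atp4a, 1 time before Kcnj15 and 2 times before Slc26a9. It occurred in 53.6% of the 32851 start regions of the same length. AGATAA was found 1 time before Slc26a9 and not in the windows of Atp4a and Kcnj15, and 9.99% of all regions held it. TATAAA stood in the Slc26a9 window only, 2 times on opposite strands in overlapping positions, and in 12.4% of all regions.

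At day 90, 4 of the 5 genes fell against control and the fifth, Slc26a9, did not pass the test. Atp4a and Clic6 fell by most, 15.3-fold and 8.60-fold, followed by Kcnj15 with 4.24-fold and Kcnq1 with 2.87-fold. Against day 60, all 5 genes fell at day 90. At day 30 and day 60 none of the 5 differed from control by the test. In this bulk tissue, fewer parietal cells, a smaller share of normal antrum in the sample and less RNA per parietal cell cannot be told apart. Day 60 and day 90 mice also differed in age, and the part of age was not tested.

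Atp4a had normalized signals of 792, 431 and 637 in mice 1 to 3 at day 90, against 11468, 17193 and 3931 in the control mice 1 to 3. The highest day 90 array lay below the lowest control array, and the controls themselves spread widely. The log2 change was -3.93 ± 0.47 (SE; 95% interval -5.00 to -2.86; limma, adjusted p = 0.000666), and 7th from the lowest of the 22067 probes tested. Without control mouse 3 the change was -4.54, and with the methods' t-test the adjusted p of the change over all 6 arrays was 0.0541.

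Clic6 had 835, 531 and 629 at day 90, against 6543, 8984 and 3014 in the controls. The groups were again apart, with control mouse 3 nearest to the tumour-bearing antra. Its log2 change was -3.10 ± 0.36 (SE; limma, adjusted p = 0.000524), the 34th from the lowest.

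Kcnq1, the potassium recycling channel, had 673, 672 and 893 at day 90, against 2371, 2707 and 1488 in the controls. The groups did not overlap, and the day 90 level stayed well above the background minimum of 100 on all 3 arrays. The log2 change was -1.52 ± 0.23 (SE; limma, adjusted p = 0.00206; 0.0655 with the methods' t-test). Kcnj15 had 154, 95.9 and 149 at day 90, against 795, 833 and 254 in the controls, again with no overlap and with mouse 2 of day 90 at background. Its log2 change was -2.09 ± 0.42 (SE; limma, adjusted p = 0.00854). Without day 90 mouse 2 it was -1.87 with an adjusted p of 0.0633 (limma), with a trended and robust spread the adjusted p was 0.0801, and with the methods' t-test it was 0.123. A second Kcnj15 probe stayed between 57.4 and 97.7 on all 12 arrays, below the minimum of 100, and was not tested.

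Slc26a9 was dim throughout. It had 100.4, 66.2 and 76.8 at day 90, against 187, 278 and 80.2 in the controls. Here the groups overlapped, because control mouse 3 lay within the range of day 90. The log2 change of -1.01 ± 0.39 (SE; 95% interval -1.89 to -0.13) did not pass after adjustment (limma, adjusted p = 0.106). Without control mouse 3 it was -1.51 with an adjusted p of 0.00122 (limma).

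The share of all tested probes that fell at day 90 against control was 9.17%, against 4 of the 5 acid secretion genes, and 19.5% of probes changed in either direction. The same 4 genes lay below control without overlap, as did 19.9% of probes. For 4 of the 5 genes, all but Slc26a9, the 3 day 90 arrays lay below all 9 other arrays, which held for 9.64% of probes. The median log2 change over all tested probes was -0.04.

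**Figure D1:**
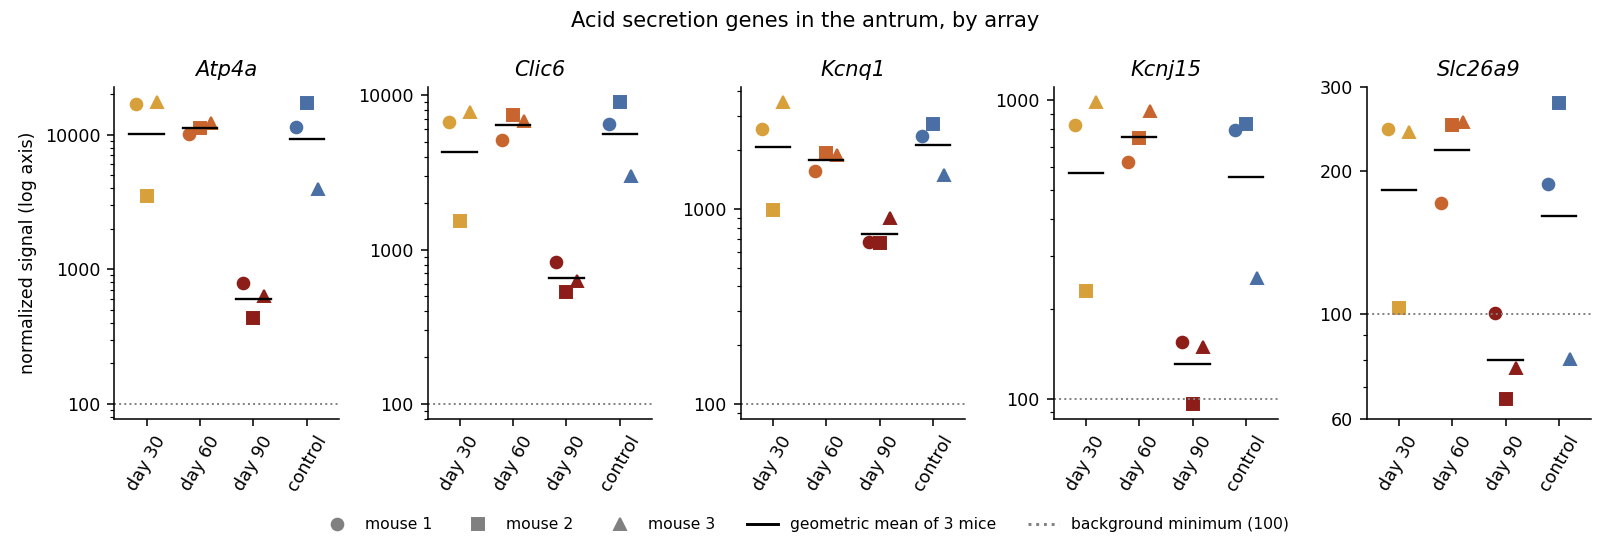
Normalized signal (log axis) of the 5 acid secretion genes on each of the 12 arrays, by group, with 1 symbol per mouse, the geometric mean of 3 mice as a bar and the background minimum of 100 as a dotted line. The day 90 arrays lay lowest in 4 genes, while control mouse 3 and day 30 mouse 2 lay below the others of their groups in all 5 (Atp4a 3931 in control mouse 3 and 3527 in day 30 mouse 2).

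The comparison of day 90 with day 60 asked whether the 5 genes differed between the last ages of the series. Day 60 had the smallest log2 SD of the 4 groups in every gene but Slc26a9. Atp4a had 792, 431 and 637 at day 90, against 10148, 11240 and 12140 at day 60, a log2 change of -4.21 ± 0.19 (SE; limma, adjusted p = 1.01e-06). This 18.5-fold fall was the 4th from the lowest of all tested probes. Clic6 had 835, 531 and 629 at day 90, against 5118, 7391 and 6823 at day 60, and fell 9.75-fold (log2 change -3.29 ± 0.18, SE; limma, adjusted p = 3.27e-06).

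Kcnj15 had 154, 95.9 and 149 at day 90, against 619, 749 and 923 at day 60. It fell 5.79-fold (log2 change -2.53 ± 0.20, SE; limma, adjusted p = 1.97e-05). Kcnq1 had 673, 672 and 893 at day 90, against 1554, 1926 and 1876 at day 60, a 2.40-fold fall (log2 change -1.27 ± 0.14, SE; limma, adjusted p = 0.000174). Both potassium channel genes were thus lower on every day 90 array than on every day 60 array.

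Slc26a9 had 100.4, 66.2 and 76.8 at day 90, against 171, 249 and 253 at day 60. At day 90, 1 of the 3 arrays lay above the background minimum of 100. It fell 2.77-fold (log2 change -1.47 ± 0.19, SE; limma, adjusted p = 0.000339), and with the authors' deposited normalized values the log2 change was -2.19. With the methods' t-test in place of limma the adjusted p was 0.0554. All 5 genes fell and none overlapped between the groups, against 9.83% of all tested probes that fell, 19.8% that changed either way and 18.2% that lay below without overlap. Against both day 60 and control, Atp4a and Clic6 had the most negative log2 changes of the 5.

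At day 60 against control, the 5 genes gave no call. Their values against the controls listed above were 10148, 11240 and 12140 for Atp4a, 5118, 7391 and 6823 for Clic6, 1554, 1926 and 1876 for Kcnq1, 619, 749 and 923 for Kcnj15, and 171, 249 and 253 for Slc26a9. In each gene the day 60 values overlapped with those of the controls. The log2 changes were 0.28 for Atp4a (95% interval -0.73 to 1.29), 0.18 for Clic6 (-0.61 to 0.98), -0.26 for Kcnq1 (-0.74 to 0.23), 0.45 for Kcnj15 (-0.48 to 1.38) and 0.46 for Slc26a9 (-0.43 to 1.35), with adjusted p between 0.639 and 0.858 (limma). For Atp4a this interval allows levels between 0.603 and 2.44 times control. Of all tested probes 0.856% changed. The sign of the change rested on control mouse 3 in 4 of the genes: without it the log2 changes were -0.33 for Atp4a, -0.27 for Clic6, -0.11 for Kcnj15 and -0.045 for Slc26a9.

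At day 30 against control there was also no call for any of the 5 genes, nor for any probe on the array (limma, 0.0% called, with 887 probes at an unadjusted p under 0.05, none of them from these 5 genes, and 0 by the methods' t-test). Atp4a had 16709, 3527 and 17334 at day 30, against 11468, 17193 and 3931 in the controls. Each group thus held a pair of high arrays and 1 low array. Clic6 had 6688, 1535 and 7731 at day 30, against 6543, 8984 and 3014 in the controls, and Kcnq1 had 2564, 991 and 3512 at day 30, against 2371, 2707 and 1488 in the controls. Kcnj15 had 829, 230 and 985 at day 30, against 795, 833 and 254 in the controls. Slc26a9 had 244, 103 and 242 at day 30, against 187, 278 and 80.2 in the controls. All 5 genes overlapped between the groups. The log2 changes ran from -0.39 for Clic6 to 0.18 for Slc26a9 and all adjusted p were 0.999 (limma), but the intervals were wide: for Atp4a they allow between 0.378 and 3.18 times control. Between day 60 and day 30 the log2 changes ran from -0.22 for Kcnq1 to 0.57 for Clic6, with none called (limma, adjusted p 0.662 to 0.93), against 0.358% of all probes.

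**Figure D2:**
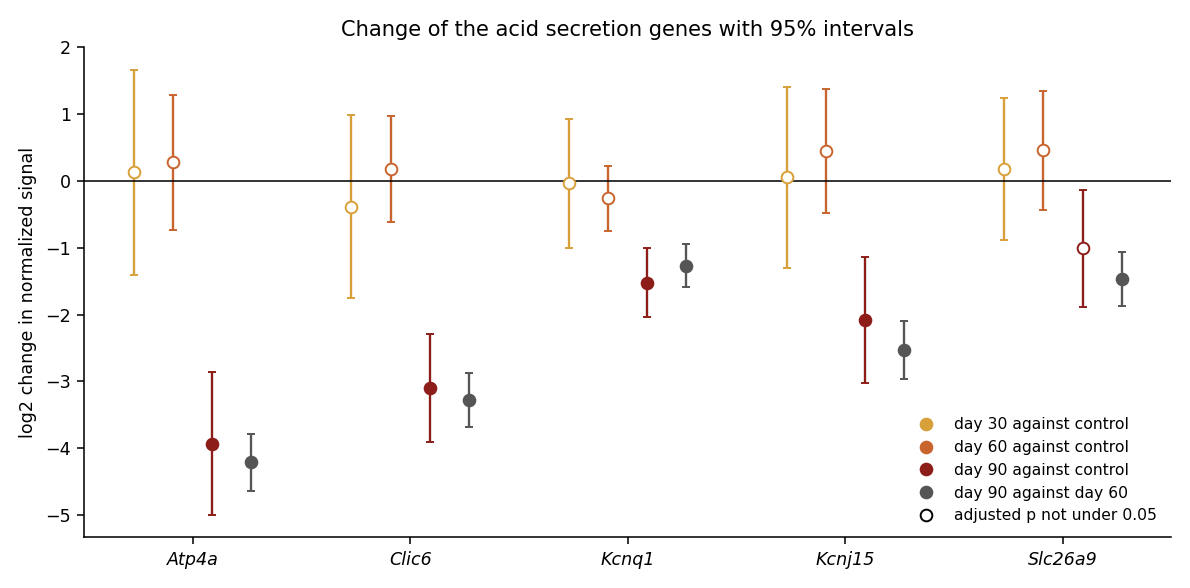
Log2 change in normalized signal of the 5 genes with 95% intervals (bars) for day 30, day 60 and day 90 against control and for day 90 against day 60. Filled points passed an adjusted p of 0.05 and open points did not, so that Slc26a9 at day 90 against control (-1.01) is open and its change against day 60 (-1.47) is filled.

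The order of the group levels followed from this. By geometric mean, day 90 was the lowest group in all 5 genes. Day 60 was the highest group for Atp4a, Clic6, Kcnj15 and Slc26a9, and control was the highest for Kcnq1, but day 30, day 60 and control did not differ beyond their spread in any gene.

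The spread among the control arrays was large for these genes. The highest control array exceeded the lowest 4.37-fold for Atp4a, 2.98-fold for Clic6, 1.82-fold for Kcnq1, 3.28-fold for Kcnj15 and 3.46-fold for Slc26a9. On the log2 scale the SD over the 3 controls was 1.10 for Atp4a, 0.81 for Clic6, 0.45 for Kcnq1, 0.97 for Kcnj15 and 0.92 for Slc26a9. The median SD of all tested probes in the controls was 0.17, so Kcnq1 stood at the 94.6 percentile of this spread and the other genes at the 98.2 percentile or above. As signals, Atp4a averaged 10864 ± 6651 and Kcnq1 averaged 2188 ± 630 in the controls (SD, n = 3).

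Day 30 was as variable, with log2 SDs of 1.31 for Atp4a, 1.29 for Clic6, 0.95 for Kcnq1, 1.15 for Kcnj15 and 0.72 for Slc26a9. At day 60 the SDs lay between 0.13 and 0.32, and at day 90 between 0.24 and 0.45. Atp4a averaged 12523 ± 7797 at day 30, 11176 ± 998 at day 60 and 620 ± 181 at day 90 (SD, n = 3 each). The SE of the Atp4a change at day 90 was 0.47 against control and 0.19 against day 60.

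In the controls and at day 30, 1 mouse of each group lay below the others. Control mouse 3 was the lowest control in all 5 genes, lying below the next control 2.92-fold for Atp4a, 2.17-fold for Clic6, 1.59-fold for Kcnq1, 3.13-fold for Kcnj15 and 2.34-fold for Slc26a9. Of all tested probes, 39.1% were lowest in control mouse 3 and 0.431% lay at least 2-fold below both other controls there. Day 30 mouse 2 was likewise the lowest day 30 array in all 5 genes, by 4.74-fold for Atp4a, 4.36-fold for Clic6, 2.59-fold for Kcnq1, 3.61-fold for Kcnj15 and 2.35-fold for Slc26a9. There, 34.5% of all probes were lowest and 0.698% lay at least 2-fold below both others. Even so, both mice exceeded every day 90 mouse in Atp4a, Clic6, Kcnq1 and Kcnj15. In Slc26a9, day 30 mouse 2 (103) exceeded every day 90 mouse and control mouse 3 (80.2) did not.

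Markers of other tissues that an antral sample can hold were read on the same arrays. Bhlha15 (Mist1), a transcription factor of the chief cells that share the corpus glands with parietal cells, was the only measured gene of 6 on the chief cell list. It had 543, 411 and 171 in control mice 1 to 3 and 349, 130 and 363 in day 30 mice 1 to 3, so the same mice were lowest. In the controls and at days 60 and 90, the mouse with most Bhlha15 also had the highest mean log2 signal of pancreatic acinar genes. At day 30, mouse 2 had the lowest Bhlha15 and the highest acinar mean (8.97). Which cells the Bhlha15 signal came from was not tested. The mean log2 signal of 4 duodenal enterocyte genes (11 listed) was 10.2 in control mouse 3, against 9.12 and 9.14 in the other controls, but 7.92 in day 30 mouse 2, against 9.02 and 9.14 in the other day 30 mice. The 4 genes did not run alike: Apoa1, an apolipoprotein gene, had 8496, 14942 and 5654 in control mice 1 to 3 and was lowest in mouse 3, while Apoa4, Slc5a1 and Cyp3a11 were highest there. For 6 forestomach squamous genes (13 listed) it lay between 10.7 and 11.3 in the controls. At day 30 it was 9.98, 6.90 and 6.86 in mice 1 to 3. The part of these tissues in the acid secretion genes' spread was not tested.

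**Figure D3:**
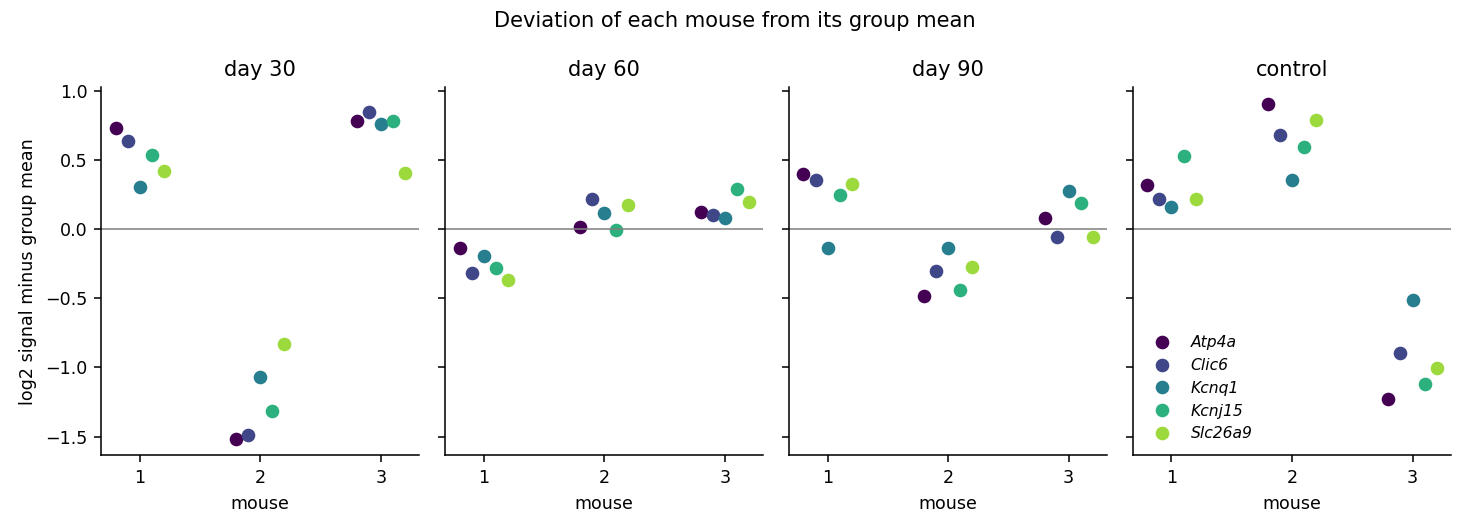
Log2 signal of each gene in each mouse minus the mean of its group, in 4 panels by group, with mice on the horizontal axis and genes by colour. All 5 genes were lowest in mouse 2 at day 30 and in mouse 3 of the controls, and scattered less at day 60 (SDs of 0.13 to 0.32).

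Signals of the 5 genes varied together across arrays. Over the 12 arrays, Pearson's r of log2 signal between pairs of them lay between 0.86 and 0.99. Atp4a and Clic6 were the most alike, and Kcnq1 and Slc26a9 the least. Without day 90, over 9 arrays, r lay between 0.74 and 0.97, and for the deviations of arrays from their group means between 0.82 and 0.98. These are descriptions: the points share the arrays, their groups and their RNA.

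Among 5718 named genes above background, those most like each member over the 12 arrays were then listed, 5 for each. For Atp4a they were Cox7a1, a subunit of cytochrome c oxidase (r = 0.987), Clic6, the fatty acid hydroxylase Fa2h, Sdhb of the succinate dehydrogenase complex and the SNARE protein Stx8 (r = 0.982). Clic6 was followed by Atp4a, Cox7a1 (r = 0.984), the fatty acid binding protein gene Fabp3, Kcnj15 and the lactate dehydrogenase gene Ldhb. Kcnj15 was closest to Fabp3 (r = 0.982), Ldhb, Clic6, the water channel gene Aqp4 and Fa2h. Kcnq1 stood with a different set, the Golgi adaptor gene Gga2 (r = 0.986), the basolateral anion exchanger gene Slc4a2 (r = 0.985), Smarcd3, Il11ra1 and Cpm. Slc26a9 was closest to Prnd (r = 0.971), Mrps18c, Akt2, Kcnj15 and Neo1.

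Other genes that serve the same cell were read next, from lists of the pathway. Of 21 other genes of the acid transport machinery, 10 had a named probe and 7 were above background. At day 90 against control, 4 of these 7 fell, none rose, and their median log2 change was -0.81, against -0.04 over all probes and 9.17% of probes falling. Slc4a2, which passes bicarbonate to the blood in exchange for chloride, had 705, 661 and 719 at day 90, against 3774, 4851 and 1756 in the controls. Its groups did not overlap, and its log2 change was -2.19 ± 0.32 (SE; limma, adjusted p = 0.00178). The sodium-proton exchanger genes Slc9a2 (log2 change -1.09) and Slc9a4 (-0.81) fell as well.

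Aqp4, a basolateral water channel of parietal cells, had 99.0, 82.2 and 102 at day 90, against 199, 233 and 157 in the controls, with 1 of the 3 day 90 arrays above the background minimum of 100. It fell by 1.04 on the log2 scale (limma, adjusted p = 0.00311). The other 3 genes of the list gave no call: Kcne1, an accessory subunit of Kcnq1, with a log2 change of -0.48, the sodium bicarbonate transporter gene Slc4a4 with -0.15, and the sodium pump subunit gene Atp1b1 with 0.36. Against day 60, 4 of the 7 fell at day 90 and none rose (median log2 change -0.80), against 9.83% of all tested probes that fell. At day 60 and at day 30 against control, none of the 7 was called (limma, medians of -0.01 and 0.14). The beta subunit of the proton pump, Atp4b, was not analysed here.

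Of 11 listed genes for secretagogue receptors, their ligands and signalling, 3 were above background. Cckbr, the gastrin receptor gene, had 815, 795 and 621 at day 90, against 239, 238 and 115 in the controls. All day 90 arrays lay above all controls, and the log2 change was 1.98 ± 0.27 (SE; limma, adjusted p = 0.00135). Gnas, which encodes the stimulatory G protein alpha subunit, rose too (log2 change 1.49), while the PACAP receptor gene Adcyap1r1 gave -0.15 and no call. Against day 60 the same pair of genes rose, 9.94% of all probes rose there and 10.4% against control. The study counts Gnas among neuroendocrine markers, and the 4 measured neuroendocrine genes rose against control too. Which cells the rise of Cckbr and Gnas came from was not tested. The histamine receptor gene Hrh2 had a probe below the background minimum.

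Of 16 genes of the secretory canaliculus, its vesicles and the parietal lineage, 5 were above background. At day 90 against control 3 fell and none rose, with a median log2 change of -0.39, against 9.17% of all tested probes that fell. Ezr encodes ezrin, which ties actin to the canalicular membrane. It had 1554, 1484 and 1502 at day 90, against 4252, 4685 and 3406 in the controls, and fell by 1.43 on the log2 scale (limma, adjusted p = 0.000227). The actin-binding protein gene Lasp1 (log2 change -0.81) and Rab11fip1, for a partner of the vesicle protein Rab11 (-0.39), were the other two. Against day 60, Ezr, Lasp1, Rab27b and Rab11a fell at day 90, against 9.83% of all tested probes. Rab11fip1 was not called there (limma, adjusted p = 0.223).

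Parietal cells are rich in mitochondria, and of 17 listed genes of mitochondrial energy metabolism 6 were above background. At day 90 against control 4 fell and 1 rose (median log2 change -0.66), against 9.17% of all tested probes that fell and 10.4% that rose. The genes that fell included Ogdh of the citric acid cycle (-1.11), and Sdhb (-0.84) and Uqcrc1 (-0.48) of the respiratory chain, whereas Mdh2, also of the citric acid cycle, rose (0.61). Mdh2 was already higher at day 60 against control (log2 change 0.74; limma, adjusted p = 0.0249). From day 60 to day 90 its log2 change was -0.14, with no call. Against day 60, 5 of the 6 fell and none rose, against 9.83% of all tested probes that fell. Of 31 listed paralogues of the 5 genes, 3 were above background, and none was called against control (limma). Against day 60, Clic4 fell (log2 change -0.47) and Slc26a3 rose (0.73).

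**Figure D4:**
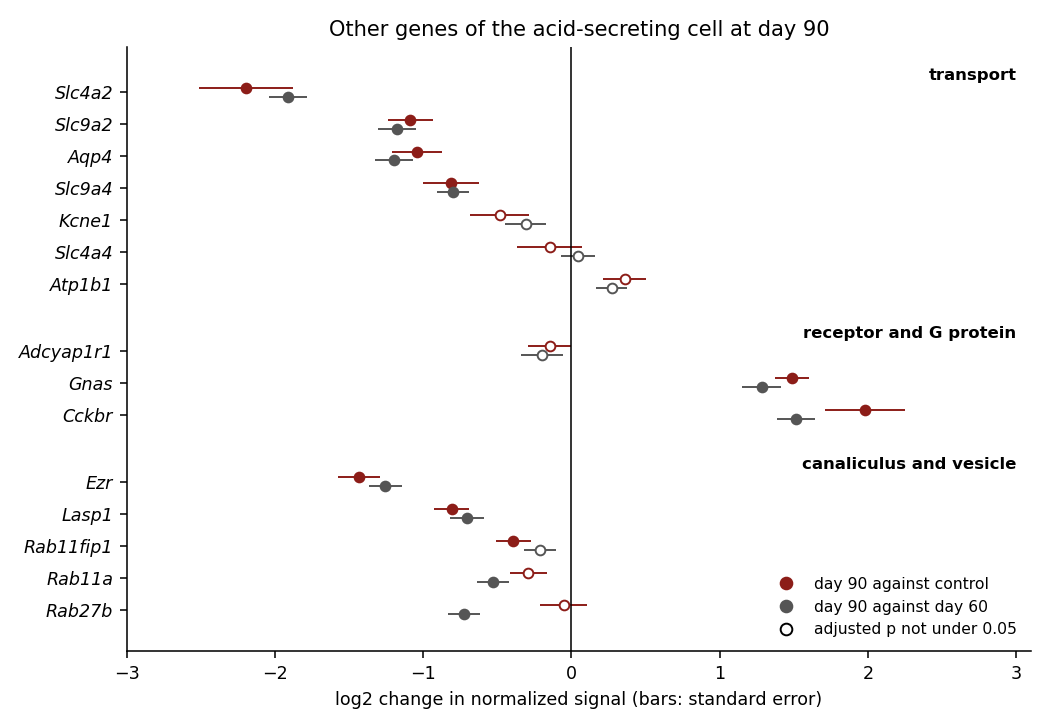
Log2 change in normalized signal (bars show the standard error) of listed genes of acid transport, receptors and G proteins, and canaliculus and vesicles, for day 90 against control and day 90 against day 60. Filled points passed an adjusted p of 0.05; Slc4a2 (-2.19 against control) lay farthest to the left and Cckbr (1.98) farthest to the right.

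Other gene groups also differed from control on the same day 90 arrays, where 9.17% of all tested probes fell and 10.4% rose. All 4 measured neuroendocrine genes of 10 listed rose against control, with a median log2 change of 3.66, and their summed signal lay between 16407 and 21768 at day 90, against 779 and 946 as the lowest and highest in the controls. All 5 measured smooth muscle genes fell (median log2 change -1.19), with summed signals of 1992 to 2733 at day 90, against 6319 to 7575 in the controls. Of these, Cnn1 had 93.5, 75.9 and 76.0 at day 90, below the background minimum of 100. Against day 60, 3 of the 5 fell, against 9.83% of all tested probes. Bhlha15 fell (log2 change -1.30; limma, adjusted p = 0.0383), with 118, 126 and 172 at day 90, against 543, 411 and 171 in the controls. Psca, the single measured gene of 12 gastric mucous genes, was bright on all 12 arrays (18668 to 46339.7) and fell by 0.80 on the log2 scale. Of 6 squamous genes, 5 fell, with summed signals of 540 to 7970 at day 90, against 13938 to 21182 in the controls. This was not particular to day 90: the sums were 7759, 754 and 734 in day 30 mice 1 to 3. None of the 6 was called at day 90 against day 60. Of 4 enterocyte genes Apoa1 fell (log2 change -3.29). Of 6 genes listed as pancreatic acinar, Pla2g1b alone was called and fell (-4.15). It did not run with the others: Pla2g1b had 24290 and 23866 in control mice 1 and 3, where Prss1 had 3753 and 65.6. The tissue behind the fall of Pla2g1b was not tested. The mean log2 signal of the acinar genes, Pla2g1b included, was 7.21 to 10.7 at day 90, against 12.004, 8.49 and 7.79 in control mice 1 to 3. Of 4 general epithelial genes, Krt19 fell (-1.14) and Cldn4 rose (1.18). Their part in the changes of the 5 acid secretion genes was not tested.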

How the data were processed

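RNA from the antrum of 12 mice was measured on 1-colour Illumina Sentrix Mouse-6 arrays. The authors deposited non-normalized probe intensity values (array medians of 92.1 to 127.1) and a table of normalized intensity values of the same 46116 probes, for which the methods name vsn and, for the tests, quantile normalization, without saying which made this table. It is linear and keeps the rank order of probes within arrays. Non-normalized values were background corrected by normexp (offset 50), quantile normalized and taken to log2 with limma 3.58.1 in R 4.3.3. The offset makes folds of dim probes too small. Probes above 100 on at least 3 arrays (22067) were tested by limma, 3 against 3 arrays per comparison, with Benjamini-Hochberg adjustment and a threshold of 0.05. The test was checked on simulated data. Replicates are different mice by their titles, and the number of arrays limits the precision.

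Genes were read from zero-padded NCBI gene numbers in 9832 probe IDs or from RIKEN clone names in 983, an inference that matched the names in the study's tables for 86 of 86 probes found both ways. Another 227 probes were named from those tables alone and were kept out of lists. The members and lists were chosen with earlier results of these data known. All probes of the 5 genes were named, then the 2 to 4 called genes of a list with the largest change, beside uncalled ones of the pathway lists. The brightest probe stood for a gene in a list, and 1 gene of a list is not reported here by name. Alternatives were no background correction, an offset of 16, scaling to the 75th percentile, the deposited values (floor of 16), a floor of 100, no filter or one at 200, fitting all groups at once, eBayes with trend and robust options, a t-test as in the methods, the mouse number as block, and dropping single arrays. The t-test was run on the log2 values with Benjamini-Hochberg adjustment, without the study's filters on fold and difference of means. No slide or detection p-value was given.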

Additional observations from a re-analysis of the deposited data

Results flagged for a closer look

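The log2 changes of the 5 genes against control at day 90 and at day 60 differed, as tested by day 90 against day 60 directly (limma): -4.21 for Atp4a, -3.29 for Clic6, -1.27 for Kcnq1, -2.53 for Kcnj15 and -1.47 for Slc26a9. The control arrays cancel in this difference, and every day 90 array lay below every day 60 array in all 5 genes.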

How the results depend on the processing

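Over 17 alternatives, the 5 genes kept a negative change in all 170 combinations of gene and setting for day 90 against control and against day 60, and 163 kept their side of the threshold. The exceptions against control were the methods' t-test (Atp4a -3.93, adjusted p = 0.0541; Kcnq1 -1.52, adjusted p = 0.0655; Kcnj15 -2.09, adjusted p = 0.123), the trended and robust spread (Kcnj15 -2.09, adjusted p = 0.0801), and leaving out 1 array, where Kcnj15 ran from -2.65 to -1.79 (adjusted p = 0.0633 without day 90 mouse 2) and Slc26a9 from -1.51 to -0.62 (called only without control mouse 3). Atp4a ran from -4.54 to -3.48. Against day 60, Slc26a9 was lost with the methods' t-test (-1.47, adjusted p = 0.0554). The t-test calls were made after adjustment and without the study's filters, so they are not the study's own calls. Apart from construction, the cause of these exceptions was not tested.

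In the other comparisons none of the 255 combinations gave a call and 22 turned sign, all by leaving out 1 array. These ranges were, at day 60 against control, -0.33 to 0.73 for Atp4a, -0.27 to 0.52 for Clic6, -0.11 to 0.75 for Kcnj15 and -0.045 to 0.85 for Slc26a9. At day 30 against control they were -0.48 to 0.89 for Atp4a, -0.84 to 0.36 for Clic6, -0.41 to 0.50 for Kcnq1, -0.51 to 0.71 for Kcnj15 and -0.32 to 0.59 for Slc26a9. At day 60 against day 30 they were -0.61 to 0.54 for Atp4a, -0.18 to 0.99 for Clic6, -0.76 to 0.16 for Kcnq1, -0.26 to 0.79 for Kcnj15 and -0.14 to 0.49 for Slc26a9.

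Counts of all probes called moved more. At day 90 against control there were 4314, with 1644 by the methods' t-test and 2417 to 4720 without 1 array (2417 without day 90 mouse 2, 2635 without mouse 3). The share of higher calls was 53.1%, and 68.2% with the deposited values. At day 90 against day 60 there were 4363, with 1506 by the methods' t-test and 2922 to 4884 without 1 array. At day 60 against control there were 189, with 380 from the deposited values, 8 with a floor of 100, 313 with no filter, 322 with 1 fit of all groups, 426 with the trended spread, 0 by the methods' t-test and 3 to 278 without 1 array. At day 60 against day 30 there were 79, with 190 with no background correction, 0 with an offset of 16, 0 with 75th percentile scaling, 47 from the deposited values, 0 with a floor of 100, 228 with no filter, 0 with a filter at 200, 173 with 1 fit of all groups, 208 with the trended spread, 0 by the methods' t-test and 0 to 229 without 1 array. At day 30 against control there were 0, and 0 to 83 without 1 array. With the mouse number as a replicate block the counts were 3619, 3996, 42, 0 and 0 for day 90 against control, day 90 against day 60, day 60 against control, day 60 against day 30 and day 30 against control. The block changed no call of the 5 genes, and the numbers do not pair the samples: same-numbered mice had correlations of deviations between -0.43 and 0.36. No slide block was run, since no slide was given. The dim Slc26a9 signal limits its fold.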

Other observations

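The probes that shared the low values of control mouse 3 and day 30 mouse 2 were listed after their values had been seen, with no test. In control mouse 3, 95 probes lay at least 2-fold below both other controls, and in day 30 mouse 2, 154 lay at least 2-fold below both other day 30 mice. The lists shared 52 probes, 33.8% of the day 30 list and 54.7% of the control list. Of the 17 with a gene name, 4 were acid secretion genes (Atp4a, Clic6, Kcnj15 and Slc26a9). Their presence follows from the choice of arrays, which were picked for the low values of these genes. The others included Slc4a2, Cox7a1, Fabp3, Ldhb, Fa2h, Gga2 and Bhlha15 of the chief cell list. Fabp3, for a fatty acid binding protein, was 3.70-fold below the next control in control mouse 3 and 6.42-fold below the next day 30 mouse in day 30 mouse 2. At day 90 against day 60, groups in which neither array took part, 46 of the 52 probes fell, against 9.83% of all tested probes. Against control, where control mouse 3 took part, 31 of the 52 fell at day 90, against 9.17%. These shares test no link, because the 52 probes were picked on arrays chosen for low acid secretion genes. They include 4 of those genes, so all tested probes are not a like background. Fabp3 fell by 3.16 on the log2 scale at day 90 against day 60 (limma, adjusted p = 1.08e-06), Cox7a1 by 3.00 (adjusted p = 2.7e-06) and Ldhb by 2.51 (adjusted p = 6.95e-06). Ly6e, a lymphocyte antigen family gene also among the 17, had a log2 change of -0.28 there and was not called (limma, adjusted p = 0.153).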
